A study of Mus musculus with 4 samples.

Results

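The genes described here are 10 transcripts of inflammatory and suppressive myeloid cells: the interleukin 1 ligands Il1a and Il1b and their antagonist Il1rn, the cytokines Osm and Il6, the receptor Clec4e, and the enzymes Acod1, Ptgs2, Arg1 and Nos2. They were picked by symbol from the 36464 genes of the deposited tables, and they were chosen by a reader who had already seen values of these libraries, so their levels are given as a description with no test. Of the 10 genes, 7 reached at least 1 RPKM (reads scaled by exon length and by the counted reads of the library) in at least 2 libraries, as did 12484 genes in all. Arg1, Nos2 and Il6 did not.

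The cells were CD8+ T cells, enriched out of tumour grafts placed percutaneously in male wild-type C57BL/6 mice. One group of 6 mice received control IgG and the other group of 6 received an antibody against SIGLEC15, a sialic acid-binding lectin studied as an immune checkpoint, both by intraperitoneal injection for 2 weeks, with collection on day 19. For sequencing, 3 cell pellets were mixed per library, which gave 2 libraries per treatment. No source used here gives the tumour cells or the age of the mice. An SD below is therefore the spread between 2 pools, not between mice.

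Myeloid cells that sense microbial products or dying cells switch on a shared set of early genes through NF-kB, C/EBP and AP-1 transcription factors. Interleukin 1 alpha and beta then signal through the receptor IL-1R1, which the antagonist encoded by Il1rn occupies without signalling, and the decoy receptor IL-1R2 captures the ligands. Other members of the set act through metabolites: ACOD1 makes itaconate, PTGS2 (COX-2) makes the precursor of prostaglandin E, arginase 1 breaks down arginine, and inducible nitric oxide synthase turns arginine into nitric oxide. In tumours, neutrophils and macrophages carrying these genes are known both for driving inflammation and for restraining T cells, the latter mostly through arginine depletion and prostaglandins.

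The libraries held between 14854803 and 16026198 counted reads each. The T cell label fits the markers, since all 15 T cell markers passed the filter and Cd8a measured between 115 and 351 RPKM, lowest in IgG replicate 1. Transcripts of other cells were present as well: the summed RPKM of 16 neutrophil markers was 961 and 88.4 under IgG and 249 and 395 under anti-SIGLEC15, and that of 14 hepatocyte markers was 5954, 1225, 2593 and 1265 in the same order. The macrophage list summed to 1564, 279, 583 and 281 RPKM, of which Apoe, a gene that hepatocytes also express, made up 1522, 242, 545 and 236 RPKM. Among the macrophage markers Ms4a7, Fcgr1 and Trem2 had at most 3 reads in every library, and among the neutrophil markers Elane did. The 7 red cell markers summed to 691, 1929, 113 and 19.9 RPKM, and all 5 that were tested had both anti-SIGLEC15 values below both IgG values, as did 6.02% of all genes tested, with a median log2 fold change of -4.42 and 0 called by limma. The part of these other cells in the results below was not tested. IgG replicate 1 stood apart with a T cell marker sum of 1178 RPKM, against 3489, 3119 and 3168 RPKM in IgG replicate 2 and both anti-SIGLEC15 libraries. In bulk RNA, fewer cells of a type and less RNA per cell cannot be told apart.

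Il1b, the secreted ligand that inflammasomes process, was the most abundant of the 10 genes in every library. In IgG replicates 1 and 2 it measured 146 and 13.8 RPKM, and in anti-SIGLEC15 replicates 1 and 2 it measured 34.4 and 84.7 RPKM; values of every other gene are listed in this sequence of libraries. The IgG libraries lay at the top and at the bottom, and both anti-SIGLEC15 libraries lay between them. Il1b (ENSMUSG00000027398) lies on the minus strand of chromosome 2, from 129364570 to 129371139 in GRCm38, close to Il1a (ENSMUSG00000027399, 129299610 to 129309972, same strand). Il1a, the ligand released from damaged cells, measured 12.5 and 0.751 RPKM under IgG and 5.74 and 15.3 RPKM under anti-SIGLEC15. Its spread of 20.4-fold between the highest and the lowest library exceeded that of the other genes that passed the filter. Il1rn (ENSMUSG00000026981, chromosome 2, 24336853 to 24351494, plus strand), the receptor antagonist, measured 8.04 and 0.827 RPKM under IgG and 3.40 and 10.6 RPKM under anti-SIGLEC15. For Il1a and Il1rn, unlike Il1b, anti-SIGLEC15 replicate 2 was the highest library.

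Osm (ENSMUSG00000058755, chromosome 11, 4236420 to 4241026, plus strand) encodes oncostatin M, a cytokine of the interleukin 6 family released by neutrophils and macrophages. It measured 32.1 and 4.48 RPKM under IgG and 12.3 and 20.2 RPKM under anti-SIGLEC15, a 7.17-fold range. Il6 itself (ENSMUSG00000025746, chromosome 5, 30013114 to 30019981, plus strand) was close to absent: 4 and 1 reads under IgG and 6 and 6 reads under anti-SIGLEC15, or 0.103, 0.0266, 0.157 and 0.166 RPKM. Its exact 95% Poisson intervals, 0.0280 to 0.263 and 0.000672 to 0.148 RPKM under IgG and 0.0578 to 0.343 and 0.0610 to 0.362 RPKM under anti-SIGLEC15, overlapped one another. Although both anti-SIGLEC15 values were nominally the higher ones, a difference in Il6 was not detectable at this depth. These intervals cover counting error only.

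Clec4e (ENSMUSG00000030142, chromosome 6, 123281789 to 123289870, minus strand) encodes Mincle, a C-type lectin receptor for mycobacterial glycolipids and for a protein of dead cells. It measured 14.6 and 1.27 RPKM under IgG and 4.61 and 10.2 RPKM under anti-SIGLEC15. Its order over the libraries was that of Il1b and Osm, under IgG replicate 1 the highest and IgG replicate 2 the lowest.

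Of the enzymes, Acod1 (ENSMUSG00000022126, chromosome 14, 103046977 to 103056573, plus strand) was the most abundant and stood second to Il1b in every library. It measured 60.5 and 4.77 RPKM under IgG and 22.3 and 63.4 RPKM under anti-SIGLEC15. The 2 upper libraries differed little and belonged to different treatments. Ptgs2 (ENSMUSG00000032487, chromosome 1, 150100031 to 150108227, plus strand) measured 20.4 and 2.21 RPKM under IgG and 6.86 and 19.4 RPKM under anti-SIGLEC15. It too was nearly as high in anti-SIGLEC15 replicate 2 as in IgG replicate 1.

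The pair of enzymes that compete for arginine was low. Arg1 (ENSMUSG00000019987, chromosome 10, 24915221 to 24927484, minus strand) had 5 and 13 reads under IgG and 14 and 31 reads under anti-SIGLEC15, which is 0.140, 0.376, 0.400 and 0.937 RPKM. The interval of anti-SIGLEC15 replicate 2, 0.636 to 1.33 RPKM, barely met that of IgG replicate 2 at 0.200 to 0.643 RPKM, and anti-SIGLEC15 replicate 1, at 0.219 to 0.672 RPKM, was not separable from IgG replicate 2. Nos2 (ENSMUSG00000020826, chromosome 11, 78920787 to 78960254, plus strand) had 33 and 10 reads under IgG and 10 and 15 reads under anti-SIGLEC15. Its level of 0.464 RPKM in IgG replicate 1 compared with 0.145, 0.144 and 0.227 RPKM in IgG replicate 2 and anti-SIGLEC15 replicates 1 and 2. Nos2, like Il1b, was highest in IgG replicate 1, at an interval of 0.321 to 0.655 RPKM. The interval of anti-SIGLEC15 replicate 2, 0.128 to 0.377 RPKM, overlapped that one and those of the 2 libraries with 10 reads. The rest of the Nos2 order was therefore not resolved at this depth. Arg1 was nominally lowest in IgG replicate 1, the library in which Il1b was highest. Its interval there, 0.0455 to 0.327 RPKM, overlapped those of IgG replicate 2 and anti-SIGLEC15 replicate 1. That rank of Arg1 was therefore not resolved either.

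**Figure D1:**
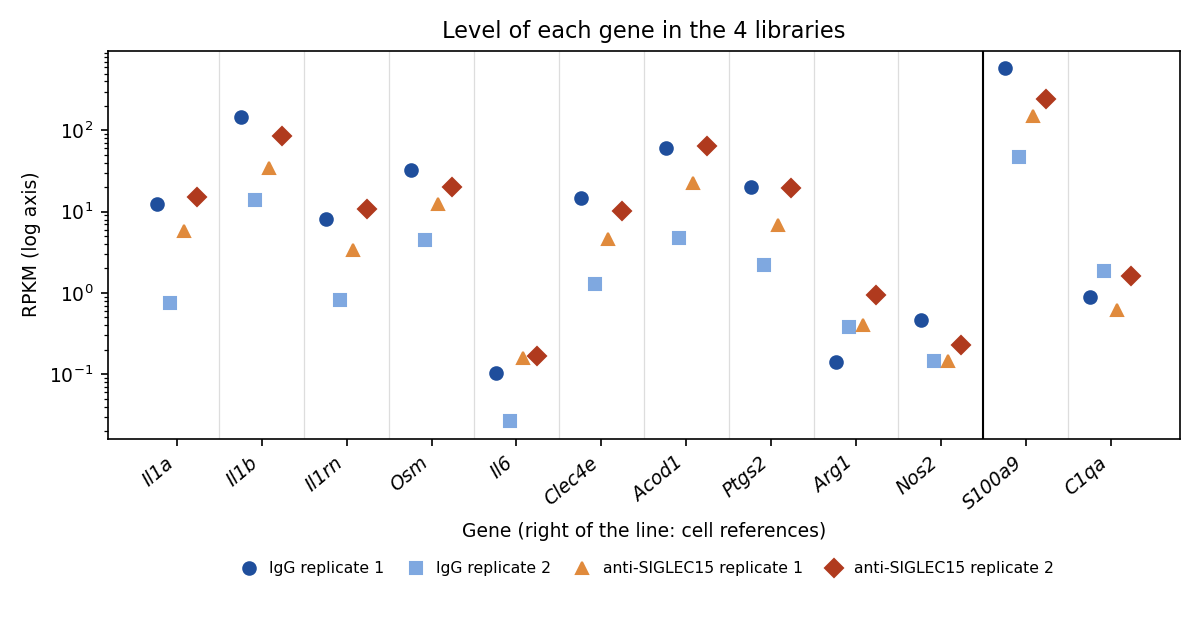
RPKM (log axis) of the 10 genes and of the references S100a9 (neutrophils) and C1qa (macrophages) in each library, 1 point per library with no error bar. For the 7 genes that passed the filter, IgG replicate 2 is the lowest point and anti-SIGLEC15 replicate 1 the next, while Il6, Arg1 and Nos2 stay under 1 RPKM throughout.

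The question the treatments address is how blocking SIGLEC15 changes cells of the tumour infiltrate, as the study's title states for CD8+ T cells. Across the 12484 genes tested with limma, 0 (0%) passed an adjusted p of 0.05, with 146 at an unadjusted p under 0.05. The same test by limma-voom on the recovered reads covered 15061 genes, called 0 and left 90 with an unadjusted p under 0.05. Of all genes tested, 12.1% had both anti-SIGLEC15 values above both IgG values (higher in both) and 6.02% had them below (lower in both). Among the 7 genes that passed the filter, 0 were higher in both and 0 were lower in both.

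Each of the 7 genes varied more within the IgG pair than between the treatment means. Il1b averaged 80.0 ± 93.7 RPKM (SD, n = 2) under IgG and 59.6 ± 35.6 RPKM (SD, n = 2) under anti-SIGLEC15. Acod1 averaged 32.6 ± 39.4 RPKM under IgG and 42.8 ± 29.1 RPKM under anti-SIGLEC15. The log2 fold changes on the log2(RPKM + 1) scale ran from 0.24 (SE 1.16) for Il1b to 1.11 (SE 1.05) for Il1a, with 1.04 (SE 1.21) for Acod1 and 0.61 (SE 1.01) for Ptgs2. Their median was 0.61, beside 0.02 over all genes tested. Its sign changed with single libraries of either treatment. Without IgG replicate 1 the median was 1.97 and all 7 values were positive, and without IgG replicate 2 it was -0.76 and all 7 were negative. Without anti-SIGLEC15 replicate 2 it was -0.02, with negative values for Il1b, Osm, Ptgs2 and Clec4e, and without anti-SIGLEC15 replicate 1 it was 1.30. With libraries scaled to the T cell markers the median of the 7 genes was -0.13, while that of all genes moved to -0.59.

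The 7 genes shared an order over the libraries. IgG replicate 2 was the lowest library and anti-SIGLEC15 replicate 1 the next for 7 of the 7 genes, an order found in 339 of the 12484 genes tested (2.72%). IgG replicate 1 exceeded IgG replicate 2 at least 3-fold for all 7, as it did for 10.6% of all genes, and anti-SIGLEC15 replicate 2 exceeded replicate 1 for all 7, as it did for 22.2% of all genes. Since the genes were selected with such values in view, these counts describe them and support nothing further. The same order was present in 7 of 11 tested neutrophil markers, 1 of 7 macrophage markers, 0 of 12 hepatocyte markers and 0 of 15 T cell markers. S100a9, a calcium-binding protein that fills the cytoplasm of neutrophils, measured 579 and 46.7 RPKM under IgG and 149 and 245 RPKM under anti-SIGLEC15. Its 12.4-fold range was like the 12.9-fold range of Il1rn and the 13.3-fold range of Acod1. C1qa, a complement subunit made by macrophages, had only 10 to 30 reads per library (0.900 and 1.86 RPKM under IgG, 0.613 and 1.62 RPKM under anti-SIGLEC15) and did not share the order.

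**Figure D2:**
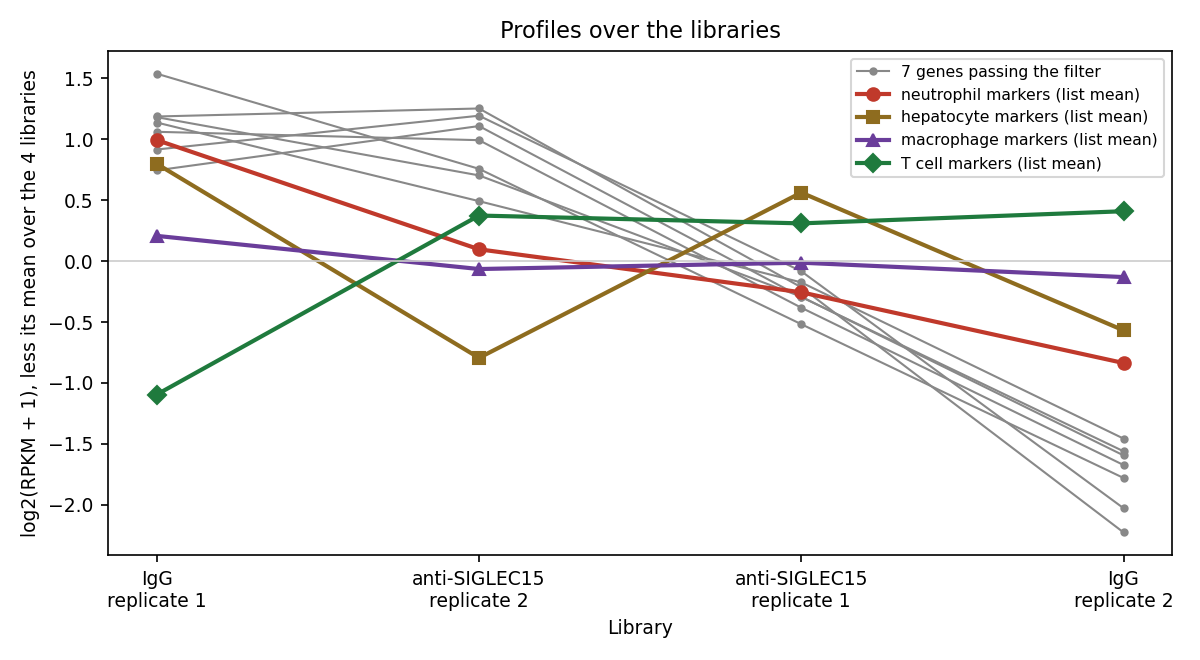
Centred log2(RPKM + 1) of the 7 genes that passed the filter (thin grey lines) and the mean of 4 marker lists (thick lines) over the libraries, which are set in the order of the 7 genes; the lines join libraries only to make each profile visible. From the second library on, all grey lines fall, with IgG replicate 1 the highest for 4 genes and anti-SIGLEC15 replicate 2 for 3; the neutrophil mean falls throughout, while the T cell mean is lowest in IgG replicate 1 and the hepatocyte mean is lowest in anti-SIGLEC15 replicate 2.

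The genes whose profile over the 4 libraries lay nearest to the mean profile of the 7 genes, among 6030 candidates with a mean of at least 5 RPKM, were Hcar2, Clec4d, Slfn4, Il1f9 and Tyrobp. Likeness was measured as the root mean square distance in log2 units over 4 libraries, which were 0.079, 0.079, 0.094, 0.097 and 0.14. Hcar2, a receptor for niacin and ketone bodies, measured 43.9 and 5.04 RPKM under IgG and 17.5 and 43.6 RPKM under anti-SIGLEC15. Il1f9, which encodes interleukin 36 gamma of the interleukin 1 family, measured 21.7, 1.88, 8.70 and 19 RPKM in the same order. Clec4d encodes the lectin MCL, which pairs with Mincle. The neutrophil receptor gene Csf3r ranked 6 at a distance of 0.15, S100a8 ranked 21 and S100a9 ranked 25 at 0.38, while Cd8a ranked 5806 at 1.63. For single genes, the nearest was Hcar2 for Acod1 and for Il1a, Clec4d for Ptgs2, G0s2 for Il1b, Nlrp3 for Il1rn, Asprv1 for Osm and Csf3r for Clec4e. Asprv1 and Osm lay 0.033 apart, the closest of these pairs.

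The DNA just before the transcription starts of these genes is shown next, with the motifs of the factors named above. Whether these motifs bear on the order over the libraries was not tested. The RefSeq promoter table for GRCm38.p6 held 7 of the 10 genes, of which 5 are shown, those that passed the filter and have a single start entry. Each stretch below runs 5′ to 3′ on the strand of its gene, from base 100 to base 6 before the RefSeq start, and capitals mark the matches found by script.
Il1a (chr2:129309978-129310072, minus strand): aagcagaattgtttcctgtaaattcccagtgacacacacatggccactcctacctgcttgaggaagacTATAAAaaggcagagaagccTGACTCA
Il1b (chr2:129371145-129371239, minus strand): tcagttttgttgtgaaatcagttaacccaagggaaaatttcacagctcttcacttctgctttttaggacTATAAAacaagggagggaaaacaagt
Clec4e (chr6:123289877-123289971, minus strand): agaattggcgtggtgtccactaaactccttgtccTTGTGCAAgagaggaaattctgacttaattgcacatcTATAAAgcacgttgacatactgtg
Acod1 (chr14:103046912-103047006, plus strand): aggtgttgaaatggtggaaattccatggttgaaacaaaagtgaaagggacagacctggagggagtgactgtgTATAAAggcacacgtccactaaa
Ptgs2 (chr1:150099931-150100025, plus strand): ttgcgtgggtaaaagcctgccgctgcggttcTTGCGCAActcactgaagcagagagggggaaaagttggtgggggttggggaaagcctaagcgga

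The TATA box letters TATAAA stood 28 to 23 bases before the start in Acod1, 32 to 27 in Il1a, 31 to 26 in Il1b and 29 to 24 in Clec4e. TATAAA, searched on the gene's strand alone, occurred within 250 bases before the start in 7.59% of all 32851 entries. C/EBP letters (TTGCNNAA, both strands) stood 69 to 62 bases before the Ptgs2 start and 66 to 59 bases before the Clec4e start, and occurred in 9.56% of entries; the Clec4e match reads TTGTGCAA on this strand and fits the pattern on the other. AP-1 letters (TGANTCA, both strands, 6.75% of entries) stood 12 to 6 bases before the Il1a start and 141 to 135 bases before the first of the 3 start entries of Il1rn. Il6, the gene with the fewest reads, held no TATAAA match but held matches to each of the other motifs searched. These included AP-1 at 249 to 243 and a cyclic AMP response element (ACGTCA, both strands, 6.47% of entries) at 136 to 131 bases before its start. C/EBP stood at 128 to 121 and the NF-kB motif at 44 to 35 bases before its start. The NF-kB motif was searched on the gene's strand alone, where it occurred in 5% of entries. A match describes letters and not the binding of a factor.

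Messages of early inflammatory genes often carry AU-rich elements, which speed their decay. In the longest coding transcript of each gene, the pentamer ATTTA occurred at a median of 1.75 per kilobase over the 10 genes, beside 0.788 per kilobase over 10261 tested coding genes and 0.710 over the 6378 of them in the same range of length. Il6, at 4.27 per kilobase, and Ptgs2, at 3.37 per kilobase, had the densest runs, followed by Il1b at 2.95, Osm at 2.64 and Clec4e at 1.99 per kilobase. Il1rn had 0 and Acod1 had 0.381 per kilobase, so that the feature did not extend to every gene. Of the references, S100a9 had 0 and C1qa had 0.962 per kilobase, while the T cell reference Cd8a had 2.24, above the median of the 10 genes. The pentamer was counted over the whole transcript, coding sequence included. The nonamer TTATTTATT, counted as overlapping ATTTA, was found in Acod1 and Ptgs2, 2 of the 10 genes (20%), and in 8.21% of the tested coding genes.

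Expressed as a percentage of S100a9 in the same library, the genes parted from one another. Acod1 stood at 10.4% and 10.2% of the S100a9 RPKM under IgG and at 14.9% and 25.8% under anti-SIGLEC15. Its exact 95% binomial (Clopper-Pearson) intervals of 9.95 to 11.0% and 8.55 to 12.2% lay apart from those of 13.7 to 16.3% and 24.3 to 27.4%. Such intervals cover counting error only, and those of the anti-SIGLEC15 libraries also lay apart from each other. Il1a stood at 2.15% and 1.61% under IgG and at 3.85% and 6.25% under anti-SIGLEC15, also with separate intervals. Both IgG libraries therefore had nearly equal Acod1 per S100a9, despite a 12.7-fold difference in the level of Acod1. Il1rn stood at 1.39% and 1.77% against 2.28% and 4.33%, and Clec4e at 2.52% and 2.73% against 3.09% and 4.15%. For these last 2 genes the intervals of IgG replicate 2 and anti-SIGLEC15 replicate 1 overlapped.

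In all, 4 of the 7 genes were higher per S100a9 in both anti-SIGLEC15 libraries, beside 0.601% of all genes tested. Of the 7, 0 were lower, beside 0.336% of all genes tested. S100a9 differed 12.4-fold within the IgG pair, so a gene with another profile could hardly separate. That holds the shares of all genes low, and the counts are no measure of enrichment. Ptgs2 (3.52% and 4.73% against 4.60% and 7.90%), Il1b (25.3% and 29.5% against 23.1% and 34.5%) and Osm (5.55% and 9.60% against 8.27% and 8.22%) overlapped between treatments. Of the 10 other neutrophil markers tested, S100a8 alone was higher per S100a9, at 27.2% and 24.5% against 29.1% and 28.9%. Lower values were found for 3 (Retnlg, Ngp and Wfdc21). For each of these markers, S100a8 included, the binomial intervals overlapped between the treatments, so the differences were not resolved at this depth. All these percentages share the S100a9 value of their library, so they are not independent of each other. The median difference of the 7 genes relative to S100a9, on the log2(RPKM + 1) scale, was 0.40, less than the spread of 0.55 between replicates (SD), and without IgG replicate 1 it was -0.04.

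With the receptor gene Csf3r as the neutrophil reference, 5 of the 7 genes had a higher ratio in both anti-SIGLEC15 libraries, beside 0.473% of all genes. A lower ratio was found for 1 gene, beside 0.649%. Csf3r differed 10.1-fold within the IgG pair, so these shares of all genes are low in the same way. Acod1 stood at 1.79 and 1.43 times the Csf3r RPKM under IgG and at 2.27 and 2.79 times under anti-SIGLEC15. The lower one was Il1b, at 4.33 and 4.12 times against 3.51 and 3.73 times. Clec4e, counted as higher, stood at 0.431 and 0.381 times against 0.470 and 0.448 times. No counting intervals were computed for ratios to Csf3r, so whether such gaps exceed counting error was not tested. Among the tested neutrophil markers, S100a9 aside, 5 also had a lower ratio to Csf3r in both anti-SIGLEC15 libraries. These were Retnlg, Mmp9, Ngp, Wfdc21 and Stfa2l1, and 0 markers had a higher ratio. Osm overlapped between the treatments under either reference. Relative to C1qa, the macrophage reference, the median difference was 0.79 with a spread of 1.70 between replicates (SD), and it was -0.87 without IgG replicate 2.

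**Figure D3:**
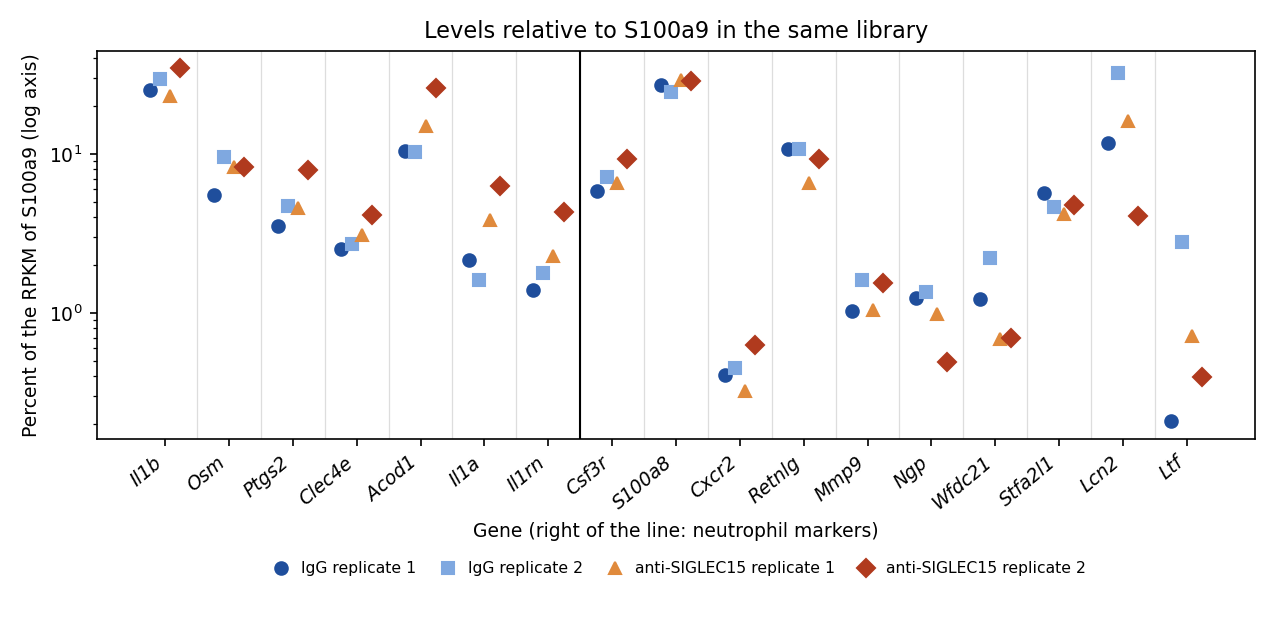
RPKM of each gene as a percentage of the RPKM of S100a9 in the same library (log axis), with the 7 genes that passed the filter on the left of the line and the 10 other tested neutrophil markers on the right; 1 point per library. Acod1, Il1a, Il1rn and Clec4e have both anti-SIGLEC15 points above both IgG points, while Ngp, Wfdc21 and Retnlg have them below. Of these genes, Acod1 and Il1a alone had counting intervals that lay apart between the treatments.

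The make-up within the 7 genes also differed between the treatments, a comparison chosen after the values were seen. Il1b made up 49.7% and 49.0% of their summed RPKM under IgG and 38.4% and 37.8% under anti-SIGLEC15, whereas the sum itself was 294 and 28.1 RPKM under IgG and 89.6 and 224 RPKM under anti-SIGLEC15. The share was thus alike within each treatment although the sum differed widely within the IgG pair. As a percentage of the Il1b RPKM, Acod1 stood at 41.4% and 34.7% under IgG and at 64.7% and 74.8% under anti-SIGLEC15. Il1a, the other ligand of the same receptor, stood at 8.53% and 5.46% against 16.7% and 18.1%. Il1rn, their antagonist, stood at 5.49% and 6.01% against 9.87% and 12.5%. The exact binomial intervals of these 3 genes, which cover counting error only, lay apart between the treatments. Ptgs2 and Clec4e were also higher per Il1b in both anti-SIGLEC15 libraries, at 13.9% and 16.1% against 19.9% and 22.9% for Ptgs2. Osm, at 22.0% and 32.6% against 35.9% and 23.8%, was the exception. In total 5 of 6 genes were higher and 0 were lower, beside 0.553% and 0.256% of all genes tested. All 6 share the Il1b value as denominator. Il1b differed 10.6-fold within the IgG pair, so a gene with another profile could hardly separate. That holds the shares of all genes low, and the counts are no measure of enrichment. With 2 libraries per treatment the difference in make-up has no further replicate check.

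**Figure D4:**
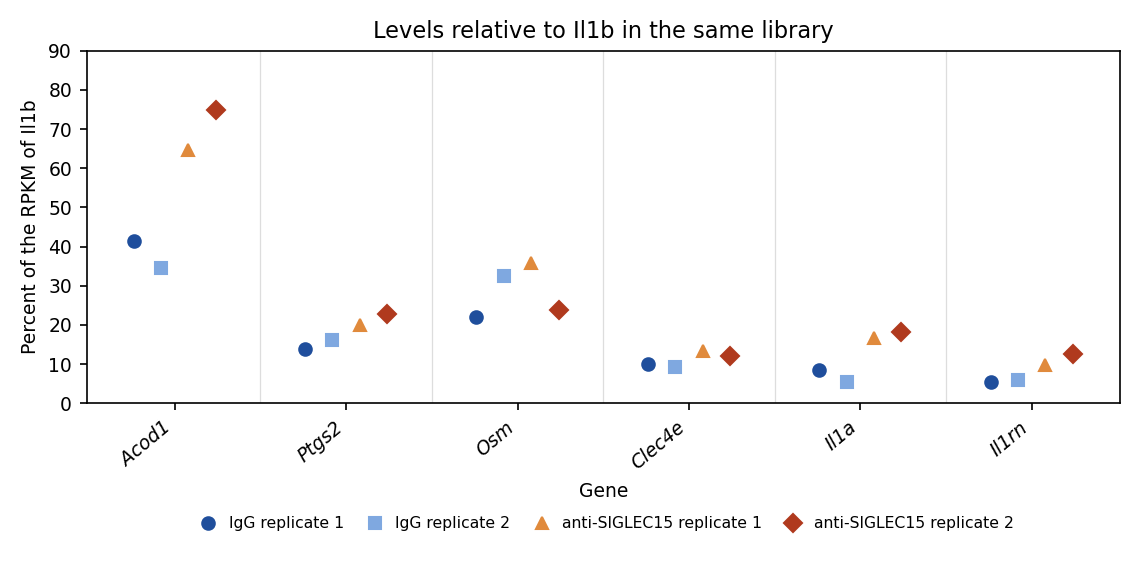
RPKM of 6 genes as a percentage of the RPKM of Il1b in the same library, 1 point per library, on a linear axis from 0. Acod1 lies at 41.4% and 34.7% in the IgG libraries and at 64.7% and 74.8% in the anti-SIGLEC15 libraries, and Osm is the 1 gene whose treatments overlap.

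Partners in each pathway did not all share the order of the genes. In the interleukin 1 list, 14 tested genes other than Il1a, Il1b and Il1rn had a median log2 fold change of 0.29. Of these 14, 0 were higher in both and 0 were lower in both, beside 12.1% and 6.02% of all genes tested. The signalling receptor Il1r1 was low, at 1.10 and 0.294 RPKM under IgG and 0.541 and 0.0952 RPKM under anti-SIGLEC15. The decoy receptor Il1r2 was abundant and without the order of the ligands, at 51.7 and 65.1 RPKM under IgG and 28.7 and 57.7 RPKM under anti-SIGLEC15. Il1r2 is known in both neutrophils and activated T cells. Nlrp3, the sensor of the inflammasome that processes interleukin 1 beta, followed the ligands at 10.1, 1.30, 4.76 and 10.2 RPKM. Casp1, the protease of that complex, did not, at 10.3, 22.6, 21.4 and 17.6 RPKM.

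In the list of interleukin 6 and oncostatin M, 8 tested genes other than Osm had a median log2 fold change of 0.03, with 1 higher in both libraries and 0 lower, beside 12.1% and 6.02% of all genes. The oncostatin M receptor Osmr was under 0.5 RPKM, at 0.464 and 0.0958 RPKM under IgG and 0.258 and 0.133 RPKM under anti-SIGLEC15. The shared signalling chain Il6st measured 2.60, 1.46, 2.53 and 1.76 RPKM in the same order. Socs3 and Stat3, the feedback inhibitor and the transcription factor of this pathway, were the most abundant of the list. Socs3 measured 115 and 38.8 RPKM under IgG and 74.3 and 52.8 RPKM under anti-SIGLEC15, and Stat3 measured 38.4 and 61.4 RPKM against 32.3 and 71.5 RPKM. Neither separated the treatments.

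Other genes of arginine metabolism were more abundant than Arg1. Arg2, the mitochondrial isozyme, measured 12.8 and 3.61 RPKM under IgG and 6.02 and 5.61 RPKM under anti-SIGLEC15. It exceeded Arg1 by 91.1 and 9.60 times under IgG and by 15.0 and 5.99 times under anti-SIGLEC15, with the Arg1 side resting on 5 to 31 reads. Odc1, which turns ornithine into polyamines, measured 110 and 213 RPKM under IgG and 123 and 326 RPKM under anti-SIGLEC15. Of the 9 tested genes in the list, Oat alone was higher in both anti-SIGLEC15 libraries, at 23.3 and 22.2 RPKM against 20.8 and 21 RPKM, and 0 were lower. A count of 1 in 9 is near the 12.1% of all genes, and the Poisson intervals of Oat overlapped between the treatments.

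In the prostaglandin list, 6 tested genes other than Ptgs2 had a median log2 fold change of -0.07. Ptges, the synthase that acts after PTGS2, was not ordered like Ptgs2 in the anti-SIGLEC15 libraries. It measured 12.8 and 2.43 RPKM under IgG and 4.44 and 2.43 RPKM under anti-SIGLEC15. The ratio of Ptgs2 to Ptges was 1.59 and 0.910 under IgG and 1.54 and 7.97 under anti-SIGLEC15, so anti-SIGLEC15 replicate 2 had much Ptgs2 beside little Ptges. Ptger4, a prostaglandin E receptor of T cells and myeloid cells, was the 1 gene of the 6 higher in both anti-SIGLEC15 libraries, a count near the 12.1% of all genes. It measured 20.8 and 21.3 RPKM there and 4.42 and 17.6 RPKM under IgG, a log2 fold change of 1.13 (SE 0.62), and it was lowest in the library with the fewest T cell transcripts. Ptger2, the related receptor, measured 2.50 and 7.18 RPKM under IgG and 4.34 and 10.9 RPKM under anti-SIGLEC15.

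Around Acod1, 12 tested genes of the citrate cycle and of itaconate targets had a median log2 fold change of -0.17, of which 2 were lower in both anti-SIGLEC15 libraries and 0 higher, beside 6.02% and 12.1% of all genes. These were Sdha, a subunit of the succinate dehydrogenase that itaconate inhibits (40.4 and 40.3 RPKM under IgG, 39.6 and 31.0 RPKM under anti-SIGLEC15), and the citrate carrier Slc25a1 (28.8 and 18.8 RPKM against 16 and 14.1 RPKM). The Poisson intervals of Sdha overlapped between the IgG libraries and anti-SIGLEC15 replicate 1. Those of Slc25a1 overlapped narrowly between IgG replicate 2 and anti-SIGLEC15 replicate 1. Atf3, a stress-response factor, measured 357 and 54.1 RPKM under IgG and 164 and 119 RPKM under anti-SIGLEC15, which is not the order of Acod1. In the list of C-type lectins, 7 genes other than Clec4e had a median of 0.41. Bcl10, a signalling adaptor expressed in many cell types, was the 1 gene higher in both libraries, again near the share of all genes. The Poisson intervals of Bcl10 overlapped between the treatments. Clec4d measured 21.2 and 2.06 RPKM under IgG and 7.05 and 20.7 RPKM under anti-SIGLEC15. Fcer1g, the adaptor that carries the signal of both lectins, spread less widely, at 30.1, 10.7, 14.2 and 25.3 RPKM. By limma, 0 genes of these 6 lists passed the threshold.

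**Figure D5:**
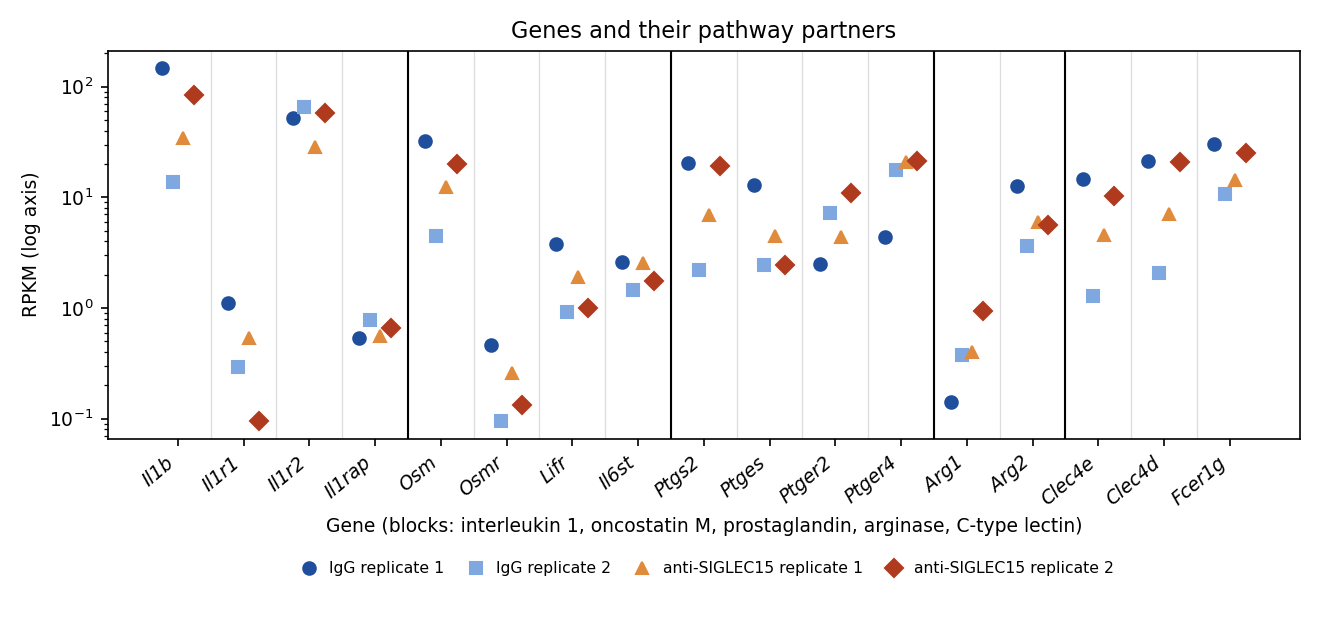
RPKM (log axis) of Il1b, Osm, Ptgs2, Arg1 and Clec4e beside receptors, isozymes and adaptors of their pathways, 1 point per library, with vertical lines between pathways. Il1r1 and Osmr lie at or under 1.10 RPKM in every library, Il1r2 lies between 28.7 and 65.1 RPKM, and Ptger4 has both anti-SIGLEC15 points above both IgG points.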

How the data were processed

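The deposited tables give 1 value per Ensembl gene and library and name no unit. The values were read as RPKM made by the authors, because each one times the exon length of its gene (GENCODE M21, GRCm38) was a whole multiple of 1 step per library for 98.92% to 98.97% of genes under 1000 reads (tolerance 0.02). Per the submitters' processing notes, the builds were GRCm38 and mm10; for the aligner and the counter, no source used here gives a name. The steps gave the reads quoted as depth.

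The titles gave each library its treatment. Treatments were compared with limma 3.58.1 (R 4.3.3; intensity trend, robust) on log2(RPKM + 1) for genes at 1 RPKM or more in at least 2 libraries, adjusted by Benjamini-Hochberg over all of them and a threshold of 0.05. Fold changes on this scale understate changes of low genes. Nothing says that the pellets of the 2 pools were handled apart, so p-values measure only the spread between pools, which may be technical. The test was checked on simulated data in which replicates differed far less than the IgG pair did here. That check does not show what the test can detect at the spread of these libraries. Reads gave exact Poisson and binomial 95% intervals (scipy 1.17.1), which cover counting error only.

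The genes, pathway and marker lists were chosen with earlier results of these data known. The text names all 10 genes, the references, leading genes and direct partners in each pathway list, and the 5 nearest profiles; other names were added after their values were seen. Alternatives were other scalings, filters, pseudocounts and references, voom, leaving out each library, and a replicate block. The Csf3r reference, the ratios without a pseudocount and the inclusion of all 10 genes were chosen after seeing the data.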

Additional observations from a re-analysis of the deposited data

How the results depend on the processing

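The number of genes called stayed at 0 under upper-quartile, median-of-ratios and T cell scaling, a pseudocount of 0.1, no filter, a filter at 5 RPKM, voom and the replicate block. With each library left out in turn it ranged from 0 to 2129: 125 without IgG replicate 1 and 2129 without IgG replicate 2, with the lone IgG library assumed to vary like the anti-SIGLEC15 pair; the cause was not tested. The labels give the replicate numbers no shared source. Under the replicate block 303 genes had an unadjusted p under 0.05, and no call changed. Same-numbered libraries had a correlation of deviations of 0.33, a value that both pairs share by construction. With the block the median log2 fold change of the 7 genes was 0.61, as without it. That median ranged from -0.76 to 1.97 with a library left out and from -0.13 to 0.76 under the other settings, with an SD of 1.56 between replicates. Relative to S100a9 it was 0.40 and ranged from -0.04 to 0.84, with 0.77 against the mean of the neutrophil markers, 0.23 against Csf3r, 0.56 without a pseudocount and 0.19 over all 10 genes. Relative to C1qa it was 0.79 and ranged from -0.87 to 2.45. Depth limits Arg1, Nos2, Il6 and C1qa, with 1 to 33 reads each per library.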

Other observations

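Inflammatory genes outside the 10 described above followed several orders over the libraries. Of 20 tested genes in a list of the NF-kB response, 5 had both anti-SIGLEC15 values above both IgG values and 0 had them below, beside 12.1% and 6.02% of all genes tested, with a median log2 fold change of 0.25 and 0 genes called by limma. Among the 5 were Ccl3 and Ccl4, chemokines that activated T cells also release. Of the 5, Ccl4 alone had Poisson intervals that lay apart between the treatments. Those of Ccl3, Tnfaip3, Relb and Icam1 overlapped, so their separation was not resolved. Ccl4 measured 178 and 482 RPKM under IgG and 794 and 519 RPKM under anti-SIGLEC15, lowest in IgG replicate 1, the library in which Il1b was highest. Tnf, which T cells and myeloid cells share, measured 44.4 and 20.4 RPKM under IgG and 41.6 and 50.8 RPKM under anti-SIGLEC15, a far narrower range than that of Il1b.

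Of 9 tested genes in a list of other suppressive myeloid genes, Il10, an anti-inflammatory cytokine, was the 1 gene higher in both anti-SIGLEC15 libraries. It measured 12.1 and 6.06 RPKM there against 2.67 and 5.46 RPKM under IgG. The Poisson intervals of IgG replicate 2 and anti-SIGLEC15 replicate 2 overlapped. Of the 9 genes 0 were lower, and a count of 1 in 9 is near the 12.1% of all genes tested. Cd274, which encodes PD-L1, measured 14.6 and 10.4 RPKM under IgG and 13.9 and 18.9 RPKM under anti-SIGLEC15, which overlapped. Both genes are known in T cells as well as in myeloid cells.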
